A study of Mus musculus with 34 samples.

Results

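The sites described here are 587 of the 6396 Foxp3 peaks found by ChIP-seq (sequencing of immunoprecipitated chromatin) in mouse regulatory T (Treg) cells, those with more Foxp3 signal in central than in effector Treg cells. They were chosen by a rule on the measured values: the mean effector value plus 1 was at most 0.5 times the mean central value plus 1, and both central values were at least 10. Central against effector values at these sites are therefore given as a description, with no test. The tests compare libraries that the rule did not use. In the knockout test, however, the central and effector libraries also entered the estimate of the spread. A set chosen the opposite way, with a ratio of at least 2 and both effector values at least 10, held 913 peaks and serves as a comparison.

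C57BL6/J mice gave all cells, which were sorted from spleen and lymph nodes and used directly. The wild-type cells carried the reporter Foxp3-IRES-hCD2, in which human CD2 on the cell surface marks cells that express Foxp3. Bulk Treg cells were CD4+hCD2+. Central Treg cells (cTreg) were sorted by surface markers that included high CCR7 and low CD44. Effector Treg cells (eTreg) were sorted by markers that included low CCR7. Batf knockout Treg cells were bulk CD4+hCD2+ cells of Foxp3-IRES-hCD2.Batf-/- mice. Foxp3 was measured with 2 libraries in each of these 4 groups. BATF was measured with 2 libraries each in wild-type Treg and conventional CD4 T (Tconv, CD4+hCD2-) cells, and IRF4 with 4 libraries each in the same kinds of cell. BATF was also measured with 2 libraries each in CD4+hCD2+GFP- Treg cells of Foxp3R397W-IRES-hCD2/Foxp3-IRES-GFP mice and of their controls, Foxp3WT-IRES-hCD2/Foxp3-IRES-GFP. Both kinds of mouse thus also carried a wild-type Foxp3 allele marked by GFP, and the sort left out cells with GFP. The labels do not say whether libraries of a group came from separate mice, so p-values measure the spread between libraries, which may be technical. Age and sex are not given in the sources used here.

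Foxp3 is the lineage factor of Treg cells and binds DNA through a forkhead domain, often beside other factors such as Runx1, Ets1 and Bcl11b. Central Treg cells recirculate through lymphoid organs and share many genes with naive T cells, among them the homing receptor CCR7 and the factors TCF-1, LEF-1, SATB1 and FOXP1. Effector Treg cells have met antigen and enter tissues. BATF is an AP-1 family factor that binds DNA with a Jun partner and, at composite sites, with IRF4, and both factors are known for their role in effector Treg cells.

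The values are the authors' normalised peak scores, in which each value is a whole number of reads times 1 scale factor per library. Reads in Foxp3 peaks numbered 164740 to 393310 per library. Reads in peaks numbered 1377509 to 2280493 in the BATF libraries of Treg and Tconv cells, 144319 to 655609 in those of R397W and control cells and 162580 to 336969 in the IRF4 libraries. The central minimum of 10 stood for 8 reads in central library 1 and 14 in central library 2. The members had a median of 31 and 58 reads in the central libraries and of 12 and 25 in the effector libraries, so values of single peaks carry a large counting error. No member was assigned to a gene of the B cell, myeloid or CD8 and NK cell marker lists, which together had 3 Foxp3 peaks.

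Of the members, 339 (57.8%) lay in the body of a protein-coding gene, against 71.0% of all Foxp3 peaks and 57.6% of the effector-preferred set. Of 575 members with a distance to a listed start site, 13 (2.26%) lay within 1000 bp of it, against 10.2% of all Foxp3 peaks and 2.88% of the effector-preferred set. Both sets had a smaller share near start sites than the Foxp3 peaks as a whole. The list of start sites is not complete, so these shares are lower bounds.

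A listed start lay inside 10 members, and the sequences before the start are shown for 4 genes, because Satb1, Foxp1 and the Ms4a4 genes are where members cluster; the starts at the other members belong to predicted genes. They are RefSeq sequences of the build GRCm38.p6, the same assembly as the mm10 coordinates of the peaks, and each gives the 250 bases before the start, 5′ to 3′ on the strand of the gene. Capitals mark a match to any of 8 short motifs.
Satb1 (chr17:51833291-51833540, minus strand): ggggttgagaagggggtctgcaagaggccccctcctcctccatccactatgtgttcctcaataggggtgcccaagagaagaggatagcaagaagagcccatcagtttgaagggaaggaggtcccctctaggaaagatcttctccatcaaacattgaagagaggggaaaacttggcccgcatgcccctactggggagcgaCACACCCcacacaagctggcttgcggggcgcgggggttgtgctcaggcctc
Foxp1 (chr6:99266516-99266765, minus strand): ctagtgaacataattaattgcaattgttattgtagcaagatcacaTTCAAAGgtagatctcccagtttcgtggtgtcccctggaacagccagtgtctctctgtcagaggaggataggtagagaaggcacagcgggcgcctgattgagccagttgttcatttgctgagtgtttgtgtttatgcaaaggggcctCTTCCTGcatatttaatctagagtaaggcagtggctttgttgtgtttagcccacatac
Ms4a4b (chr19:11443308-11443557, plus strand): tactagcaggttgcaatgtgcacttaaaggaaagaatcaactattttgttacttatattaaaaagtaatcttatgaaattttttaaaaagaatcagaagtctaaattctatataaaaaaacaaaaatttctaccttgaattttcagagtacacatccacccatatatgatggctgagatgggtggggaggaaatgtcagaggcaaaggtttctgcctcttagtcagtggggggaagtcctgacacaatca
Pik3r5 (chr11:68431875-68432124, plus strand): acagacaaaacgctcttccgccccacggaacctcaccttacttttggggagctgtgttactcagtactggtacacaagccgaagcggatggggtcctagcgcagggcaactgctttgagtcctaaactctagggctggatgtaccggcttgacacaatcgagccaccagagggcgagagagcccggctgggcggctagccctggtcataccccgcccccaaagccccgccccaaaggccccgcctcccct

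Satb1 encodes a chromatin organiser of T cells, Foxp1 a forkhead repressor that keeps naive T cells quiescent, Ms4a4b a membrane protein of T cells and Pik3r5 a regulatory subunit of phosphoinositide 3-kinase gamma. The motifs were searched on both strands from 250 bases before to 50 bases after the start: forkhead TGTTTAC, the repeat TTTGTTTG, AP-1 TGANTCA, IRF GAAANNGAA, ETS CAGGAAG, RUNX TGTGGT, TCF/LEF TTCAAAG and KLF GGGTGTG. Before the Satb1 start stood 1 KLF match, and before the Foxp1 start stood 1 ETS match and 1 TCF/LEF match. The Ms4a4b window held 1 AP-1 match, after the start, and the Pik3r5 window held no match. Of all 32851 listed promoters, 3.65% held the forkhead letters, 2.61% the repeat, 7.81% the AP-1, 8.56% the IRF, 13.3% the ETS, 16.8% the RUNX, 5.14% the TCF/LEF and 7.95% the KLF letters. A match is a description of the letters and not a measured site.

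Foxp3 signal at the members had a median over peaks of 42.5 in central Treg cells and 14.5 in effector Treg cells, taking the mean of both libraries at each peak. The ratio of effector to central had a median of 0.381 and ran from 0.0652 to 0.498. It was at most 0.25 at 90 members. Both effector values lay below both central values at 586 of the 587, an order that the rule largely sets. Just inside the ratio stood a peak assigned to 4930523C07Rik at 0.4975, and just outside it peaks assigned to Sh3kbp1 at 0.5004 and Tgfbr2 at 0.5008. Just inside the central minimum, the lower central value was 10.4 at Tent5a and 10.7 at Ncoa3, and just outside it 9.32 and 2.97 at peaks with no gene. The central minimum mattered little, since only 2 peaks met the ratio and missed that minimum.

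Bulk Treg cells, which hold central and effector cells in shares that the sources used here do not give, had a median of 27.6 at the members. Their mean lay between the effector and central means at 331 members (56.4%), above the central mean at 138 (23.5%) and below the effector mean at 118 (20.1%). It lay between them at 22.7% of all Foxp3 peaks and 48.3% of the effector-preferred set. Over all Foxp3 peaks it was above the central mean at 48.2% and below the effector mean at 51.7%. These shares overlap, because effector exceeds central at many of those peaks. They cannot be set against the separate shares of the members. The rule sets a wide gap between effector and central at the members, which leaves more room between them. On the log2 scale of value plus 1, with effector at 0 and central at 1, wild-type bulk stood at a median of 0.56 and Batf knockout bulk at 0.77. In the effector-preferred set these medians were 0.10 and 0.58. Over all Foxp3 peaks they were 0.26 and 0.62. There the scale has little meaning, because effector and central were nearly equal at many peaks (median ratio 0.99). Knockout bulk was nearer to central than wild-type bulk at 61.7% of members, 58.9% of all peaks and 77.0% of the effector-preferred set. The shift toward central was therefore not particular to the members, since the effector-preferred set also showed it. In bulk samples, fewer cells of a type and less Foxp3 on the DNA of each cell cannot be told apart.

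**Figure D1:**
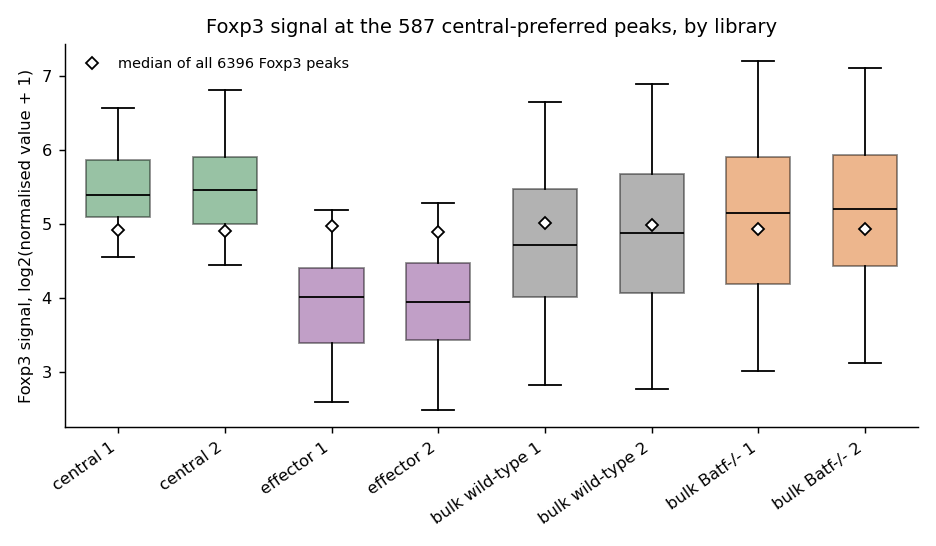
Foxp3 signal at the 587 members in each of the 8 Foxp3 libraries, as log2 of normalised value plus 1. Boxes span the quartiles with the median as a line, whiskers the 5th to 95th percentiles, and diamonds give the median of all 6396 Foxp3 peaks. The members lie above the diamonds in the central libraries and below them in the effector libraries, as the rule sets; their medians lie just below the diamonds in wild-type bulk and just above in Batf knockout bulk.

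The members were assigned to 399 genes, the nearest protein-coding gene within 100000 bp, and 53 members had none. A single member stood at 311 genes and 2 at 68. The remaining 20 genes held 3 or more each and 87 members together. Foxp1 had 12 members among its 21 Foxp3 peaks and Satb1 10 of 10. Inpp4b, a phosphoinositide phosphatase gene, had 5 of 21, Znrf1, a ubiquitin ligase gene, 5 of 8, and Ms4a4a 5 of 5. Rasgrp1, which activates Ras below the T cell receptor, had 4 of 8 and Ubac2 4 of 7. Bcl11b, Prkcq, Itga4 and Tgfbr2 were among the 12 genes with 3 members.

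Some members stood close together. Joined where less than 100000 bp lay between neighbours, 13 stretches held 4 or more members. Such stretches were not counted for other Foxp3 peaks, so closeness is not shown to be particular to the members. None of the 13 held a peak of the effector-preferred set, which is 913 of all 6396 Foxp3 peaks. Most peaks in the stretches were members, which the rule keeps out of that set. Around the Ms4a4 genes on chromosome 19, 11 of the 24 Foxp3 peaks in 178466 bp were members. In Foxp1, 11 of 12 peaks in 199970 bp were members, and at Satb1 all 10 peaks in 171307 bp. A stretch on chromosome 8 over Ap1m1, Eps15l1 and Klf2, a factor that activates S1pr1, held 4 of 6, of which 1 was assigned to Klf2. Members of 1 stretch share their surroundings and are not independent observations.

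At Satb1 the 10 members had central means of 30.0 to 106 and effector means of 2.36 to 14.5. The strongest, chr17:51903930-51904330, 70640 bp outside the gene, had central values of 90.6 and 121 and effector values of 15.2 and 12.7. Bulk wild-type values there were 144 and 136, above both central values, and Batf knockout values were 237 and 139. The highest central mean of all members stood elsewhere on chromosome 17, at chr17:51408380-51408780, which had no assigned gene and lay 229028 bp from the nearest listed start, that of Tbc1d5. Its central values were 389 and 374 against effector values of 179 and 182.

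Foxp1 held both members and effector-preferred peaks within 1 gene. Its 11 members in the stretch around the listed start, at distances from -174.9 to 24.7 kb with positive values downstream, had central means of 34.4 to 189.8 and effector means of 3.40 to 29.8. Beyond 90 kb downstream stood 9 peaks, of which 1 was a member and 2 belonged to the effector-preferred set. The others there met neither rule. The peak at 215.8 kb downstream had central values of 22.6 and 44.5 and effector values of 95 and 145. The strongest member, chr6:99388939-99389339, had central values of 170.5 and 209, effector values of 21.5 and 38.1, bulk wild-type values of 100.1 and 132 and knockout values of 126 and 147.

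**Figure D2:**
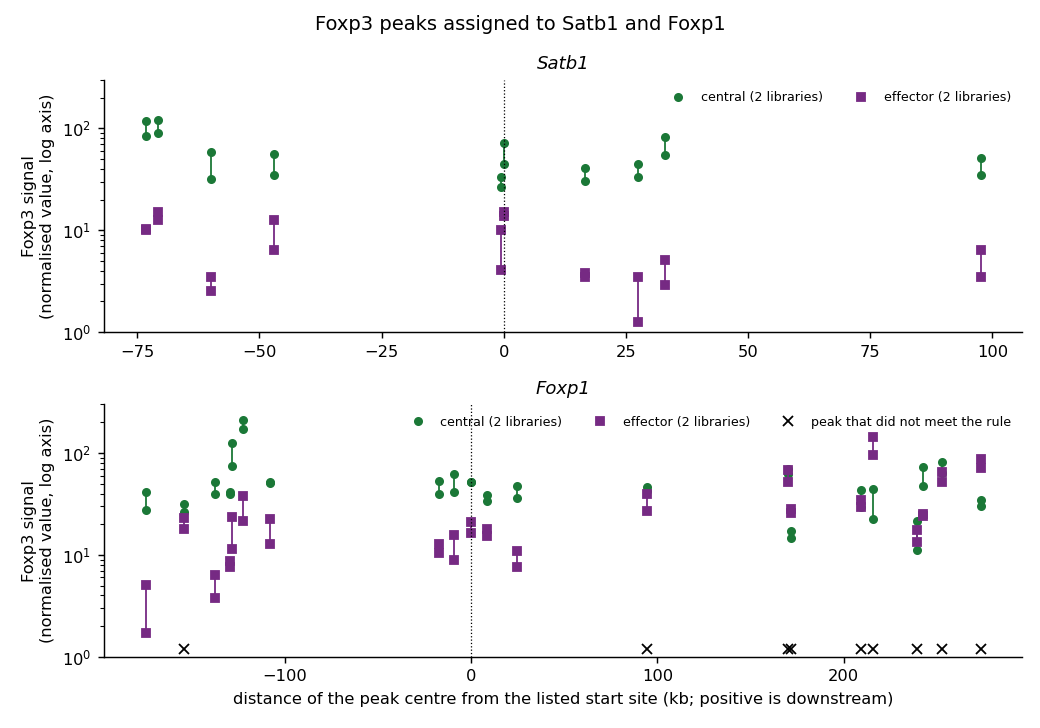
Foxp3 signal (normalised value, log axis) at every Foxp3 peak assigned to Satb1 (10 peaks) and Foxp1 (21 peaks), against the distance of the peak centre from the listed start site in kb. Each point is 1 library and a line joins the 2 libraries of a group. Crosses mark the Foxp1 peaks that did not meet the rule; most of them lie far downstream.

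Genes were grouped in lists chosen with earlier results of these data known, so a list's share is a description. Of the 129 Foxp3 peaks at central or naive T cell genes, 52 at 19 genes were members (40.3%), and 8 belonged to the effector-preferred set. At effector Treg genes, 2 of 89 peaks were members, at Gzmb and Nrp1, and 42 were effector-preferred. The members of the 2 lists can be read against 9.18% of all Foxp3 peaks. The first list holds Foxp1 and Satb1, which gave 22 of its 52 members.

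Some transcription factor genes of the resting state carried members, whereas Foxo1 and Id3 of the central or naive list had none. Over that whole list, 19 of the 29 genes with a Foxp3 peak had a member. Tcf7 and Lef1, the genes of TCF-1 and LEF-1, had 2 members each of 3 peaks, and Bach2, a repressor of effector differentiation, had 2 of 9. The strongest Tcf7 member, chr11:52309451-52309851, had central values of 63.9 and 70.4 and effector values of 16.5 and 23.1. Its bulk wild-type values of 57.6 and 96.1 lay around the central values, and its knockout values of 100.6 and 116 lay above them. The Lef1 member chr3:131139738-131140138, inside the gene, had central values of 70.6 and 91.2, effector values of 30.4 and 36.9 and bulk values of 35.4 and 38.4. There the bulk values were close to the effector values. The Bach2 member chr4:32387837-32388237 had central values of 97.2 and 96.4, effector values of 36.7 and 28.3 and bulk values of 52.6 and 64.3.

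Partner factors of Foxp3 had 33 members among 110 peaks (30.0%), 22 of them at Foxp1 and Satb1. Bcl11b had 3 of 5 peaks, Ikzf1, the Ikaros gene, 2 of 6, Ets1 1 of 11 and Runx1 1 of 8. At Ets1 the member had central values of 75.9 and 77.8 and effector values of 19 and 31.1, with bulk values of 25.3 and 23.4 inside the effector range.

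Genes of homing and egress had 13 members among 39 peaks (33.3%, against 9.18% of all Foxp3 peaks). Those with members included Itga4 (3 of 12) and Itga6, which encode integrin alpha chains. Also among them were S1pr1, the receptor for egress from lymph nodes, Klf2, and Ccr9, a gut-homing chemokine receptor. The Klf2 member had low central values of 25.3 and 28.2, effector values of 12.7 in both libraries, and higher bulk values of 34.4 and 69.3.

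Of 31 peaks at TGF-beta pathway genes 4 were members, 3 at Tgfbr2 and 1 at Tgfbr3, both receptor genes. The Tgfbr2 member chr9:116187421-116187821 had central values of 65.3 and 115, effector values of 8.87 and 12.1 and bulk values of 141 and 132. T cell receptor and costimulatory genes had 12 members of 108 (11.1%), at Rasgrp1, Prkcq, Cd28, Cd5, Cd6, Cbl and Dusp6. Cytokine receptor and STAT genes had 8 of 78 (10.3%), at Il2ra, Il6st, Jak1, Il6ra and Il10ra. Shares of these last 2 lists were close to the 9.18% over all peaks. Treg core genes had 3 of 44, genes of AP-1 and IRF factors 2 of 23, both at Bach2, and housekeeping genes 0 of 4.

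**Figure D3:**
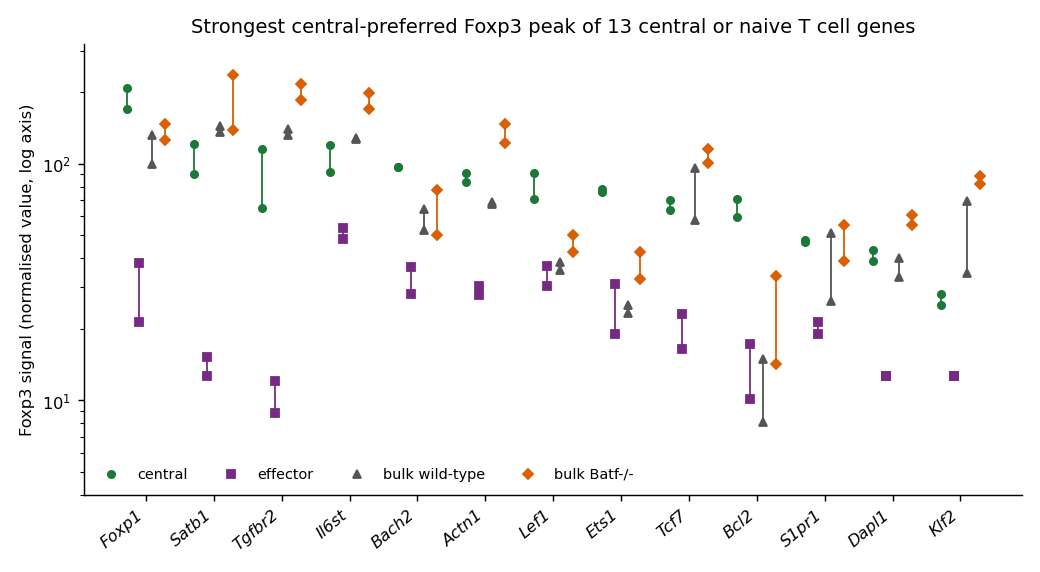
Foxp3 signal (normalised value, log axis) at the strongest member of 13 genes of the central or naive list, with 2 libraries per group joined by a line. Central values lie above effector values at each gene, as the rule sets, while bulk values range from the effector level (Lef1, Ets1, Bcl2) to above the central level (Tgfbr2, Satb1, Klf2).

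In Batf knockout bulk Treg cells the members had on balance more Foxp3 signal than in wild-type bulk Treg cells. The median log2 fold change was 0.33 at the members, 0.05 over all Foxp3 peaks and -0.63 in the effector-preferred set. The estimate was above 0 at 483 of 587 members (82.3%), against 54.2% of all Foxp3 peaks. Both knockout values exceeded both wild-type values at 251 members (42.8%), against 22.8% of all peaks, and lay below both at 28 members (4.77%), against 20.4%. Single members rarely passed the test. By limma with Benjamini-Hochberg adjustment over all 6396 peaks, 9 members were higher (1.53%; 0.547% of all peaks) and 0 were lower (3.91% of all peaks). At an unadjusted p under 0.05, 106 members were higher (6.82% of all peaks) and 5 lower (10.4% of all peaks). On recovered reads, edgeR called 12 higher and 0 lower, and DESeq2 3 higher and 0 lower. In the effector-preferred set 201 peaks were lower and 0 higher by limma.

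The count of 9 rested on few libraries. It became 22 without knockout library 1, and 5 without knockout library 2 or without either wild-type library. Without knockout library 1 there were also 6 lower calls, and without knockout library 2 there were 3.

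Ift80, which encodes a protein of intraflagellar transport, had a member at chr3:68961103-68961503 with wild-type values of 6.07 and 9.19 and knockout values of 30.5 and 30.9. The knockout values did not overlap the wild-type values at this site, which was picked for a small p. The log2 fold change was 1.90 ± 0.36 (SE, limma adjusted p = 0.00191). The member in Ubac2, chr14:122011759-122012159, had wild-type values of 11.1 and 9.19 and knockout values of 30.5 and 47.6, a log2 fold change of 1.82 ± 0.36 (SE, limma adjusted p = 0.00309). Both passed under every alternative run. At both, the wild-type bulk values lay below the effector values of the sorted cells, which were 21.5 and 16.7 at Ift80 and 11.4 and 15.6 at Ubac2. A stronger called member stood near Actn1, an actin cross-linker gene, at chr12:80273138-80273538. Wild-type values there were 68.8 and 67.7 and knockout values 146 and 122, a log2 fold change of 0.96 ± 0.24 (SE, limma adjusted p = 0.0194). The central values at this peak were 83.9 and 91.2, so knockout bulk cells stood above sorted wild-type central cells. The Actn1 call was lost without knockout library 1 and without either wild-type library, with limma adjusted p from 0.072 to 0.128.

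Members in Add3, near Mxd1 and in Retreg1 were also higher in the knockout, with log2 fold changes of 1.78, 1.24 and 1.26 and limma adjusted p of 0.0129, 0.0258 and 0.0437. Each of these 3 calls was lost without knockout library 2 and without either wild-type library. The other called member was at Kif1b, which the naming rule did not pick and which is named here after its values were seen. Near Stambpl1 and Tent5a the wild-type values were at or near 0. The Tent5a member had 0 reads in both wild-type libraries and knockout values of 5.08 and 6.43. The knockout mean was 2.08-fold a floor of 3 reads per wild-type library, with its own counting error not included. These 2 calls rest on very few reads and were lost under 7 or more alternatives each.

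Other members at list genes had higher knockout values without passing the test. Nrp1, an effector Treg list gene, had wild-type values of 24.3 and 12.5 and knockout values of 35.6 and 38.6 (limma adjusted p = 0.0898). Prkcq, which encodes protein kinase C theta, had 56.6 and 59.3 in wild type and 107 and 92.6 in the knockout (limma adjusted p = 0.0897). Of the 52 members at central or naive genes, 48 had an estimate above 0 and 1 passed the test, the Actn1 member. At Satb1 the estimates ran from -0.16 to 0.72 and at Foxp1 from 0.24 to 1.02, and none passed.

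**Figure D4:**
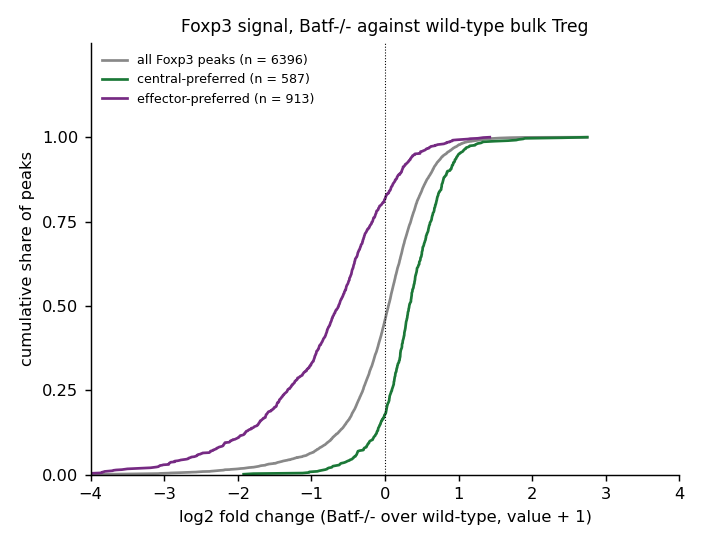
Cumulative share of peaks by the log2 fold change of Foxp3 signal, Batf knockout over wild-type bulk Treg cells (value plus 1), for all 6396 Foxp3 peaks, the 587 members and the 913 effector-preferred peaks; the axis is drawn from -4 to 4. The curve of the members lies to the right of that of all peaks (medians 0.33 and 0.05) and that of the effector-preferred set to the left (median -0.63).

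A BATF peak overlapped 280 members (47.7%), close to the 48.2% of all Foxp3 peaks and the 45.2% of the effector-preferred set. An IRF4 peak overlapped 198 (33.7%), against 39.7% and 47.5%. Both factors had a peak at 157 members (26.7%, against 33.5% of all Foxp3 peaks), BATF alone at 123 (21.0%, against 14.7%), IRF4 alone at 41 (6.98%) and neither at 266 (45.3%, against 45.6%). With only those BATF peaks above the table's median value, the share was 13.5% of members and 23.1% of all Foxp3 peaks. For IRF4 these shares were 18.6% and 26.5%. The median log2 fold change of Foxp3 in the knockout was 0.32 with both factors, 0.30 with BATF alone, 0.37 with IRF4 alone and 0.36 with neither.

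At the members, BATF signal was on balance lower in Treg than in Tconv cells. The median over the 280 BATF peaks was 50.8 in Treg and 69.9 in Tconv cells. Over all 3081 Foxp3 peaks with a BATF peak these medians were 93.5 and 69.1. The median log2 fold change was -0.54 at the members, -0.03 over all 16109 BATF peaks, and 2.64 in the effector-preferred set. By limma, BATF was lower in Treg cells at 78 of the 280 members (27.9%; 4.79% of all BATF peaks) and higher at 7 (2.50%; 14.9% of all BATF peaks). In the effector-preferred set 375 of 413 were higher and 0 lower. DESeq2 on recovered reads called 46 members lower, and without Treg library 1 limma called 51 lower. Without Treg library 2 it called 3 higher.

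One of the lower members lay in Uvrag, a gene of autophagy, at the Foxp3 peak chr7:99086981-99087381. BATF values were 8.29 and 21.5 in Treg and 88.3 and 97.8 in Tconv cells, a log2 fold change of -2.70 ± 0.44 (SE, limma adjusted p = 2.29e-04). At Runx1, a partner of Foxp3, BATF values at the member were 24.9 and 21.5 in Treg and 81.3 and 70.7 in Tconv cells (limma adjusted p = 0.00203). The Treg values lay far below the Tconv values at both genes, which were taken from the members called lower. The other list genes with a member called lower included Gzmb, St8sia1, Itga6, Actn1, Tgfbr3, Cd5 and Lef1, with log2 fold changes from -2.26 at St8sia1 to -0.84 at Cd5. At Satb1, 1 of 4 members with a BATF peak was lower, at chr17:51892891-51893291, with 18.7 and 12.4 in Treg and 69.7 and 59.3 in Tconv cells.

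The 7 members with more BATF in Treg cells ran the other way. Near Ccr9 BATF values were 41.5 and 59.9 in Treg and 19.7 and 12.9 in Tconv cells (limma adjusted p = 0.0164), a call lost without Treg library 2 or Tconv library 2. The site chr17:52064665-52065065, with no gene assigned and 231375 bp from the Satb1 start, had 121 and 134 in Treg and 39.5 and 38.6 in Tconv cells. At both sites Foxp3 was low in effector cells while BATF was higher in Treg than in Tconv cells.

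IRF4 showed the same order. Its median over the 198 overlapping peaks was 15.8 in Treg and 27.8 in Tconv cells, against 25.8 and 24.4 over all 2541 Foxp3 peaks with an IRF4 peak. The median log2 fold change was -0.78 at the members, -0.05 over all 9134 IRF4 peaks and 1.38 in the effector-preferred set. By limma, IRF4 was lower in Treg cells at 71 of 198 members (35.9%; 8.39% of all IRF4 peaks) and higher at 0 (15.8% of all IRF4 peaks). At an unadjusted p under 0.05, 2 members were higher (20.8% of all IRF4 peaks). Neither edgeR nor DESeq2 called any member higher, and they called 76 and 71 lower.

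The smallest p was at chr4:10770038-10770438, which has no gene within range. IRF4 there was 10.1, 12.7, 4.27 and 11.9 in the Treg libraries and 71.1, 69.6, 50.5 and 81.1 in the Tconv libraries, a log2 fold change of -2.75 ± 0.32 (SE, limma adjusted p = 2.07e-06). At Slfn5, a Schlafen family gene, IRF4 was 20.3, 17.4, 16.0 and 17.0 in Treg and 67.9, 43.9, 72.2 and 51.4 in Tconv cells (limma adjusted p = 8.61e-05). In Uvrag it was 1.84, 9.52, 9.62 and 6.82 in Treg and 33.1, 48.7, 28.9 and 58.3 in Tconv cells (limma adjusted p = 1.11e-04). The groups did not overlap at any of these 3 sites, which were picked for a small p. Every Treg value lay below every Tconv value at 71 of 198 members (35.9%). The share was 8.42% of the 2541 Foxp3 peaks with an IRF4 peak. All 3 IRF4 peaks under Foxp1 members in the stretch around the start were lower, with log2 fold changes from -1.35 to -0.97.

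At members that carried both factors, lower calls often coincided. Of those 157, 29 were lower for both (18.5%, against 2.61% of the 2143 Foxp3 peaks with both), 13 for BATF alone (8.28%, against 1.77%) and 27 for IRF4 alone (17.2%, against 5.97%). None was higher for both by limma, against 20.1% of the Foxp3 peaks with both. Spearman's rho between the log2 fold changes was 0.70 over the 157 members and 0.82 over all 2143. These points share the same 4 BATF and 8 IRF4 libraries and are not independent.

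In Treg cells with Foxp3 R397W, a change in the forkhead domain, BATF at the members was on balance higher than in control Treg cells. Of the members, 217 overlapped a peak of that table. The median was 38.0 in R397W and 26.6 in control cells, and the median log2 fold change was 0.52 at the members, -0.02 over all 9973 peaks and -1.33 in the effector-preferred set. By limma 11 members were higher (5.07%; 0.612% of all peaks) and 0 lower (8.04% of all peaks). At an unadjusted p under 0.05, 47 were higher (6.01% of all peaks) and 4 lower (16.4% of all peaks). On recovered reads edgeR called 17 higher and 1 lower, and DESeq2 1 higher and 0 lower. One control library had only 144319 reads in peaks. The count of 11 fell to 0 without R397W library 1, to 3 without R397W library 2 and to 3 without the second control column, and it rose to 22 without the first.

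The Cnpy1 member had BATF values of 17.0 and 17.3 in control and 83.8 and 52.0 in R397W cells, a log2 fold change of 1.89 ± 0.43 (SE, limma adjusted p = 0.0121). In Uvrag the values were 7.71 and 3.46 in control and 49.6 and 31.9 in R397W cells (limma adjusted p = 0.0175). At chr4:10770038-10770438 they were 18.5 and 6.92 in control and 56.4 and 70.7 in R397W cells (limma adjusted p = 0.0103). At Runx1 they were 17.0 and 6.92 against 47.9 and 43.7 (limma adjusted p = 0.0337). R397W values lay above control values at each of these sites, which were taken from the members called higher. Of the 11 members higher with R397W, 8 were also among the 78 lower for BATF in wild-type Treg against Tconv cells, which used other libraries. They were 3.94% of the 203 members in both BATF tables, against 0.568% of the 1938 Foxp3 peaks in both. Over the 203 members in both BATF tables, Spearman's rho between both log2 fold changes was -0.55, and over all 1938 such Foxp3 peaks it was -0.75.

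**Figure D5:**
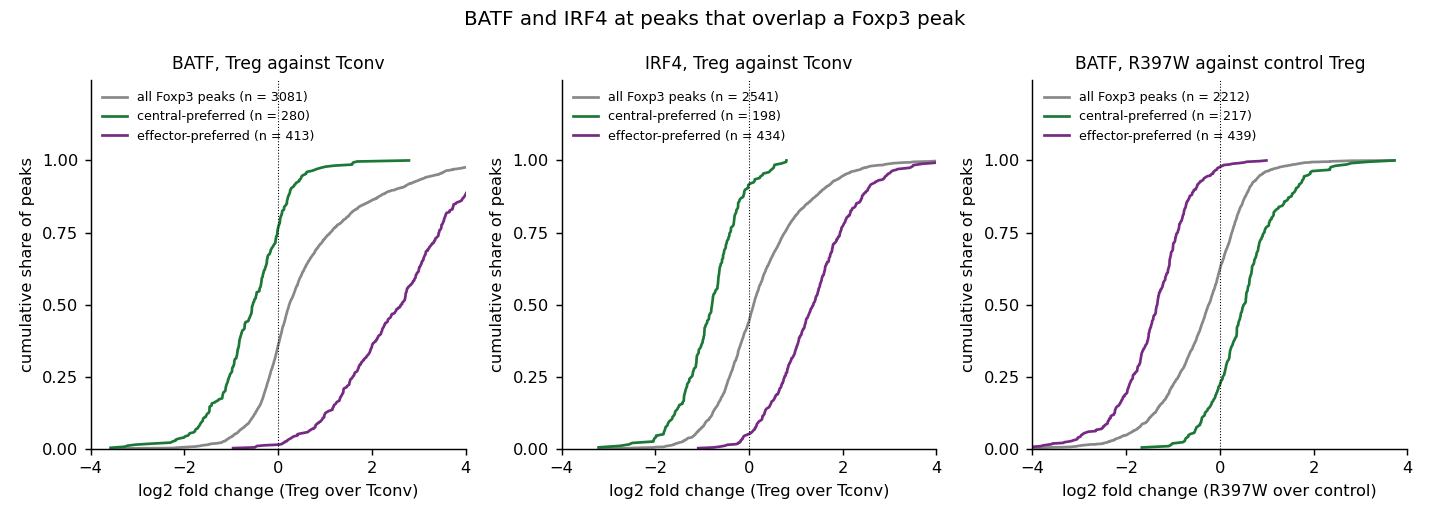
Cumulative share of peaks by log2 fold change (value plus 1), for BATF in Treg over Tconv cells, IRF4 in Treg over Tconv cells and BATF in R397W over control Treg cells, at peaks that overlap any Foxp3 peak, a member or an effector-preferred peak. The axes are drawn from -4 to 4. The members lie at medians of -0.54, -0.78 and 0.52, on the opposite side of all Foxp3 peaks from the effector-preferred set at 2.64, 1.38 and -1.33.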

How the data were processed

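The deposited values are normalised peak scores (signal) that the authors made for Foxp3, BATF and IRF4 peaks of 400 bp. The tools named, per the submitters' processing notes, are DiffBind 3.12.0, edgeR 3.38.4, MACS2 2.2.7.1 and Bowtie2 2.4.1, with the build mm10 and no role or order. Each value was a whole number of reads times a factor per library, within 0.01 of a whole number for 100.0% of values. The factors of the Foxp3 table lay within 2.14% of TMM factors. Such scaling removes a change common to most peaks. Only reads in peaks are known, not the full depth. Of the deposited columns, 4 were not used, and input libraries were not used here.

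Values were tested as log2 of value plus 1 with limma 3.58.1 (trended, moderated spread, Benjamini-Hochberg over the whole table) in R 4.3.3. The threshold was an adjusted p of 0.05. Every group of a table entered its fit, except in the R397W table, where repeated Treg and Tconv columns were left out. edgeR 4.0.16 and DESeq2 1.42.0 on recovered reads were alternatives, and the scripts were tested on simulated data. Peaks overlapped when they shared at least 1 bp. Each peak was assigned the closest protein-coding gene of GRCm38.p6 at most 100000 bp away. Coordinates are those deposited; it was not settled if counting starts at 0 or 1. The control columns of the R397W table name their group but no sample.

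Named members were the 10 with the highest central mean, the 10 with the smallest ratio, the strongest at each list gene, up to 8 per direction with the smallest p among those called in each test, those of genes with 3 or more members, and those at the thresholds. Some named members and part of the sort definition are not reported here. The members and lists were chosen with earlier results of these data known. Alternatives covered the pseudocount, normalisation, a filter on low values, the spread model, the libraries in the fit, a replicate block, a stricter ratio and each library left out.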

Additional observations from a re-analysis of the deposited data

Results flagged for a closer look

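In 108 groups of 4 IRF4 libraries at named members, 7 had 1 library far from the other 3, where chance gives about 1 in 20. At Gm11541 Tconv library 2 was lowest at 25.8, against 48.7 to 51.4. At Ms4a4a chr19:11355770 Treg library 1 was lowest at 34.1, against 48.6 to 49.2. At Il6ra Tconv library 1 was lowest at 26.7, against 37.7 to 38.8.

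Of the high values, Stambpl1 had Treg library 2 at 9.52, against 3.21 to 3.69. At Gramd3 Tconv library 2 reached 55.7, against 25 to 29.7. Near Pip4k2a Treg library 4 reached 51.1, against 34.9 to 36.9. At Zfp281 Tconv library 3 reached 63.2, against 13.7 to 21.8.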

How the results depend on the processing

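A ratio of at most 0.25 left 90 members and quantile normalisation gave 890, of which 584 were shared with the 587. At the stricter ratio 3.33% were higher in the knockout (median 0.47). There BATF was higher in Treg cells at 0 and lower at 55.9% (median -1.09), IRF4 lower at 63.6% (median -1.36), and BATF higher with R397W at 0 (median 0.78). Members higher in the knockout were 0.852% with the 4 bulk libraries only, 0.511% with DESeq2 and 0.511% with quantile normalisation. Leaving out 1 library gave 0.852% to 3.75% higher and 0 to 1.02% lower. BATF was lower in Treg cells at 16.4% with DESeq2, and the median was -0.37 above the 25th percentile of values. Leaving out 1 library gave 18.2% to 25% lower and 1.07% to 3.21% higher. For IRF4, leaving out 1 library gave 0 to 0.505% higher. With R397W, members were higher at 0.461% with DESeq2, 7.83% with edgeR and 0.922% without a trend of the spread, and lower at 0.461% with edgeR and with a pseudocount of 5. Leaving out 1 library gave 0 to 10.1% higher and medians of 0.41 to 0.56. Quantile normalisation moved the median of all peaks from -0.03 to -0.13 for BATF (members -0.66) and from -0.02 to 0.13 with R397W (members 0.69). Overlap with peaks above the table's median was 13.5% for BATF and 18.6% for IRF4. The cause of these moves was not tested. No direction reversed. Of 39 named results, 20 stayed on the same side of the threshold under every alternative run.

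Same-numbered libraries of the groups tested deviated together only weakly (correlations of 0.0761 for Foxp3 in wild-type and knockout bulk cells, 0.0882 for BATF and 0.0346 to 0.132 for IRF4; over all pairs of Foxp3 groups -0.093 to 0.139), and IRF4 Treg library 3 correlated best with another number. With the replicate block, 1.36% were higher in the knockout, BATF was higher at 2.86% and lower at 33.2%, and IRF4 higher at 0.505% and lower at 38.9%. No paired analysis was possible for R397W because the control columns carry no matched number. With 2 libraries a group and low read numbers, single peaks have wide errors.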
